A study of Homo sapiens with 15 samples.

Results

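SNAREs are the membrane-anchored proteins that pull a transport vesicle and its target membrane together until they fuse, and 40 genes of this fusion machinery were followed across doses of ZJ-101 in MDA-MB-231 breast cancer cells. The 40 genes were taken by symbol from a table of 59608 genes, from a list drawn up by function with earlier results of these data known, and all 40 were found. They comprise 33 SNAREs, grouped here by the membrane where each usually works into 12 ER-Golgi, 13 endosomal and 8 plasma membrane SNAREs, and 7 fusion regulators. MDA-MB-231 is an established triple-negative breast cancer line, and ZJ-101 is a synthetic analogue of the marine natural product superstolide. The cells grew as a 2D layer in 10 cm dishes and received 0.1% DMSO or ZJ-101 at 0.5, 5, 50 or 500 nM for 6 h, with 3 dishes per group and 1 poly-A RNA library per dish. All 5 groups are the same unmodified line, and the 4 doses are each set against the same 3 DMSO libraries, so the 4 comparisons are not independent of each other.

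Every fusion step needs a bundle of helices of the Qa, Qb, Qc and R kinds, which zips together between the membranes. Syntaxins supply most Qa helices, VAMP proteins and their relatives YKT6 and SEC22B supply R helices, and SNAP23, SNAP29 and SNAP47 carry a Qb and a Qc helix in a single protein. After fusion the ATPase NSF and its adaptors, the SNAPs encoded by NAPA and NAPG, take the bundle apart, and Sec1/Munc18 (SM) proteins such as SCFD1 guide its assembly. Traffic between the ER and the Golgi, from endosomes, and to the cell surface each uses its own set of SNAREs, although VAMP7, VAMP8, YKT6 and SNAP29 serve more than 1 route.

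The libraries held between 12415519 and 15284762 reads on genes. Values are normalized counts, that is reads divided by a size factor for each library. The line's markers VIM, CD44, EGFR and AXL were among the abundant transcripts. ESR1 was at 1.43 or less on average in every group, while the immune markers PTPRC and CD3E and the endothelial marker CDH5 were at or near 0. PGR, the other hormone receptor, was at 5.37 to 17.3 and ERBB3 at 83.2 to 117, and the epithelial cadherin CDH1 at 107 to 206. The endothelial and platelet adhesion gene PECAM1 was present at 201 to 321, and the neuronal genes SNAP25 and SYP at 20.2 to 42.2 and 7.13 to 24.1. CPLX1, also neuronal, was at 2.93 to 14.9. Replicate 2 at 0.5 nM stood apart from its group. Its chi-square per degree of freedom against the other two was 11.1 and 16.6, whereas all other pairs of replicates lay between 2.04 and 6.27. It enters the estimate of the spread for every comparison, and its effect is given beside the counts.

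Few genes of the fusion machinery passed the test. At 500 nM, 2 of the 39 tested members passed the threshold, and both fell: STX5, the Qa-SNARE of the early Golgi, and BET1, the Qc-SNARE that works with it in ER-to-Golgi transport. No member passed the threshold upward against DMSO at any dose, except SEC22A at 500 nM when DMSO replicate 3 was left out. An exploratory slope over the ranked doses called 5 members, of which BET1, STX5, STX10 and VAMP8 fell and SNAP23 rose. VAMP5 had a mean below 10 normalized counts and was not tested.

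Each gene was tested by limma on the scale log2(normalized count + 1), with p adjusted over 13561 genes by Benjamini-Hochberg and a threshold of 0.05. All fold changes below are on that log2 scale. At 0.5, 5 and 50 nM, 0 members passed, against 1.17%, 2.18% and 6% of all tested genes. At an unadjusted p under 0.05 there were 3 members at 0.5 nM (14.7% of all tested genes), 1 at 5 nM (12.9%) and 7 at 50 nM (17.4%), and edgeR and DESeq2 on the recovered reads also called 0 members at these doses. At 500 nM the 2 members (0 up, 2 down) stand beside 17.8% of all tested genes, 7.69% up and 10.1% down. At that dose 12 members had an unadjusted p under 0.05, against 29.3% of all tested genes. The slope called 1 member up and 4 down, beside 17.6% of all tested genes, 8.23% up and 9.33% down. At 500 nM the members past the adjusted threshold were a smaller share of the list than such genes were of all genes. At the unadjusted cut the shares were close, and neither comparison of shares was tested. With the slope fitted to the treated libraries alone, 7 members were called (GOSR1, STX17 and VAMP4 added, SNAP23 lost), a share close to the 17.8% of all tested genes in that fit.

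**Figure D1:**
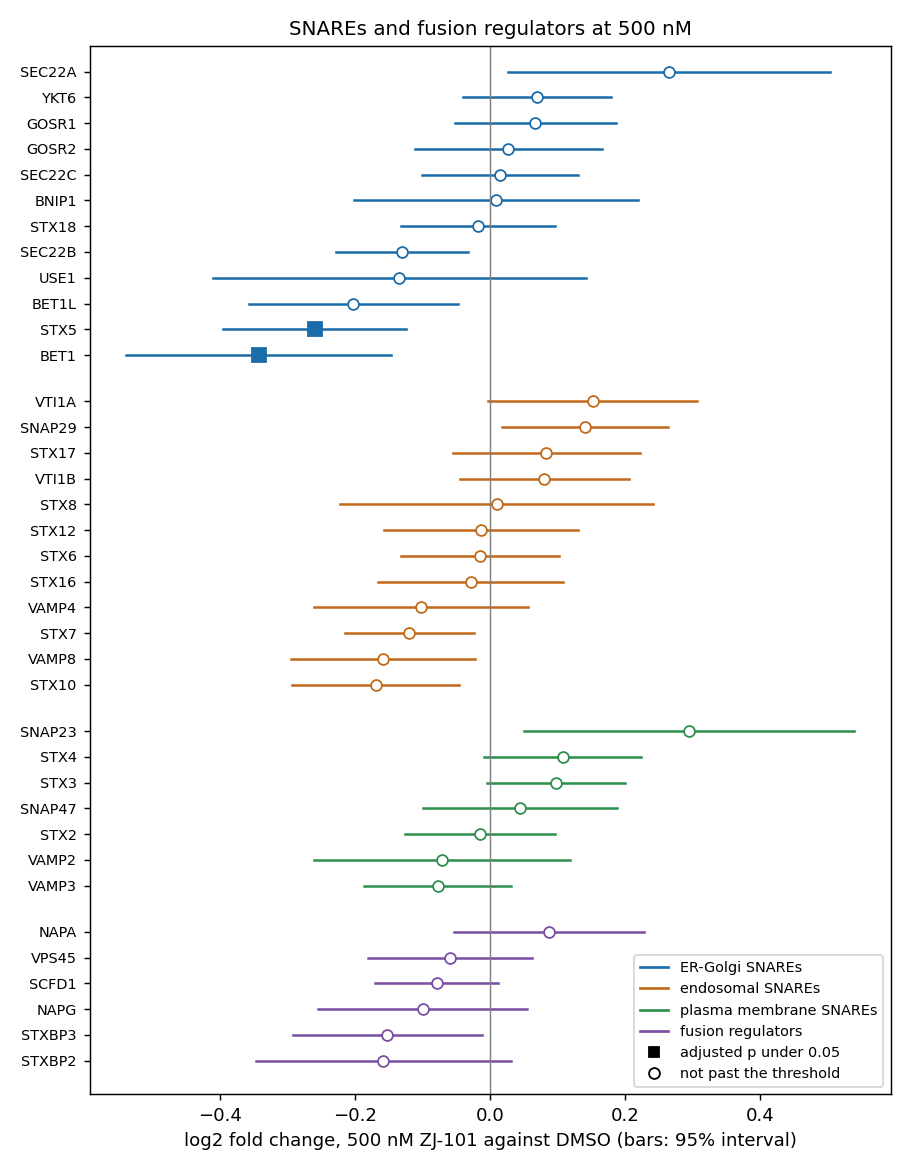
Log2 fold change at 500 nM ZJ-101 against DMSO for 37 tested members (x axis, with 95% intervals as bars), grouped by class on the y axis. STX5 and BET1 are the filled squares past the threshold, and all other members are open circles. VAMP7 and NSF, with wider intervals, are left out.

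The number of members called at 500 nM depended on single libraries. The count was 7 without replicate 2 at 0.5 nM, with BET1L, SEC22B, STX7, STX10 and VAMP8 added. That fit called 22.8% of all tested genes, and the shares below are given in the same way. The count was 5 without DMSO replicate 3 (13.6%), with STX10 and VAMP7 added down and SEC22A added up. It was 1 without DMSO replicate 1 (13.7%) or DMSO replicate 2 (13.2%), and 0 without 500 nM replicate 2 (14%). For the slope, the count was 3 without 0.5 nM replicate 3 (16.5%), 50 nM replicate 3 (16.3%) or 500 nM replicate 3 (13.5%). It was 1 without 500 nM replicate 2 (13.1%). The intervals given with each member below do not depend on where the threshold falls.

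The promoters of the 2 members that fell at 500 nM are shown because ER stress regulators act on many secretory pathway genes through short elements near the start site. Each line gives the 250 bases before the RefSeq start (GRCh38.p14), read 5′ to 3′ on the strand of the gene, with letters that match a searched element in capitals.
STX5 (chr11:62832052-62832301, minus strand): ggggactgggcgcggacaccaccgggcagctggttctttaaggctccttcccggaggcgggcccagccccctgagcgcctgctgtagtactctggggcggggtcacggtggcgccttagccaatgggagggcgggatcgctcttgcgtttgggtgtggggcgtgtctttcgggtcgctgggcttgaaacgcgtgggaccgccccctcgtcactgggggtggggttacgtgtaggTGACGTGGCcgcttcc
BET1 (chr7:94004356-94004605, minus strand): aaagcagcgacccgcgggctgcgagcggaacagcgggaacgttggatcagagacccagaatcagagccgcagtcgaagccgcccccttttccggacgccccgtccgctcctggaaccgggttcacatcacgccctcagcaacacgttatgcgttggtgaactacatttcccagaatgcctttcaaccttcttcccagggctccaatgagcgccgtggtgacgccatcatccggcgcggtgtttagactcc
The capitals before STX5 hold TGACGTGG, the core of the unfolded protein response element, from 16 to 9 bases before the start, overlapped by ACGTGGC, a Golgi stress element. The same search, on both strands of the 300-base windows that run 50 bases past each start, found the TGACGTGG core in 0.927% of 27305 genes and in 2 of the 37 members with a window, STX5 and SCFD1. A gene counts if any of its start sites has a match, and 10 of these members and 5191 of all the genes have more than 1 window, while STX5 and BET1 have 1 each. ACGTGGC was in 3.95% of genes and 4 members, STX5, SEC22A, SNAP29 (where it overlaps an E-box) and SCFD1. The ER stress elements ERSE and ERSE-II were in 0.0916% and 0.0696% of genes and 0 members, the CRE TGACGTCA in 2.25% of genes and in STX12 and STXBP3, and the E-box CACGTG in 8.77% of genes and 9 members, STX18, GOSR2, BNIP1, STX6, SNAP29, STX2, STX4, NAPA and STXBP2. BET1 had a match to none of them in its window. These matches describe letters only, and the factors that bind them were not measured.

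STX5 pairs with GOSR2, BET1 and SEC22B to fuse ER-derived vesicles at the Golgi. STX5 (chromosome 11, 62806860 to 62832051, minus strand, GRCh38) was counted at 911, 822 and 756 in the DMSO dishes and at 684, 646 and 746 at 500 nM. All 3 treated dishes lay below the lowest DMSO dish. The mean was 16.6% lower, from 829.8 ± 77.8 to 692 ± 50.5 (SD, n = 3), with a log2 fold change of -0.26 (SE 0.065, 95% interval -0.40 to -0.12) and a limma adjusted p of 0.00799. The call was lost without DMSO replicate 1 (adjusted p = 0.0627) and without 500 nM replicate 2 (0.0537). In bulk RNA a lower count cannot separate less transcript in every cell from fewer cells that carry it.

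At the lower doses STX5 did not pass against DMSO. At 0.5 nM it was at 808, 843 and 825, at 5 nM at 859, 886 and 857, and at 50 nM at 713, 759 and 734. The 0.5 and 5 nM dishes lay within the range of DMSO, and the 50 nM dishes lay below every 5 nM dish. The log2 fold change against DMSO was -0.004 at 0.5 nM, 0.068 at 5 nM and -0.17 at 50 nM (adjusted p = 0.151 by limma, not past the threshold). Between 5 and 50 nM, STX5 fell by 0.24 on the log2 scale (adjusted p = 0.0384), a call that was kept in 17 of 25 alternatives. It was lost without any 1 of the 3 libraries of either dose, without DMSO replicate 2, and without the filter on low counts.

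BET1 (chromosome 7, 93962762 to 94004382, minus strand) also fell at 500 nM. Counts were 296, 352 and 315 in DMSO, 323, 350.4 and 285 at 0.5 nM, 306, 314 and 259.6 at 5 nM, 249, 263 and 275 at 50 nM and 251, 239.7 and 267 at 500 nM. The 50 and 500 nM dishes all lay below the lowest DMSO dish, while 0.5 and 5 nM overlapped it. The mean at 500 nM was 21.3% lower than in DMSO, 321 ± 28.6 against 252 ± 13.6 (SD, n = 3), with a log2 fold change of -0.34 (SE 0.094, 95% interval -0.54 to -0.15) and a limma adjusted p of 0.0147. That call was lost without DMSO replicate 2 (0.0919) and without 500 nM replicate 2 (0.0664). At 50 nM the log2 fold change was already -0.29, with an adjusted p of 0.0851. The BET1 slope, -0.096 per dose step (adjusted p = 0.00206 by limma), held in all 25 alternatives.

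The other partners of the ER-to-Golgi bundle did not pass. SEC22B, the R-SNARE, was at 1487, 1469.9 and 1481 in DMSO and 1328, 1384 and 1344 at 500 nM, with no overlap of the groups. Its log2 fold change at 500 nM was -0.13 (SE 0.046, 95% interval -0.23 to -0.033) with an adjusted p of 0.0616 by limma. At 0.5 nM SEC22B was at 1339, 1388 and 1351 and at 5 nM at 1414, 1445 and 1396. These dishes also lay below every DMSO dish. The 50 nM dishes, at 1300.1, 1470.3 and 1343, overlapped DMSO. The log2 fold change at 0.5 nM was -0.12 (limma adjusted p = 0.221). GOSR2, the Qb-SNARE, was at 357, 375 and 362 in DMSO and 363, 381 and 371 at 500 nM, with a log2 fold change of 0.027 (SE 0.066, 95% interval -0.11 to 0.17). The GOSR2 groups overlapped.

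**Figure D2:**
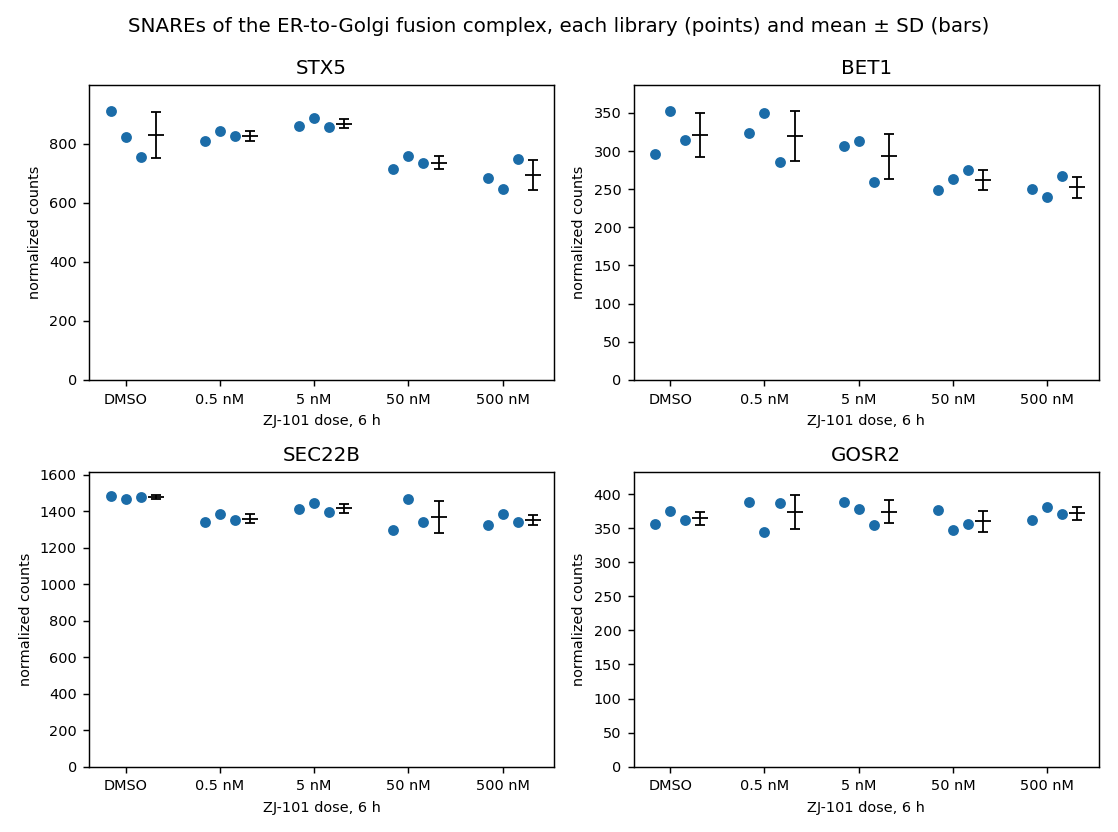
Normalized counts (y axis, from 0) of STX5, BET1, SEC22B and GOSR2 by ZJ-101 dose (x axis), with each dish as a point and mean ± SD beside it (n = 3). The 500 nM dishes of STX5, BET1 and SEC22B lie below all DMSO dishes, and those of GOSR2 overlap them.

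Within the Golgi, STX5 works with GOSR1, BET1L and YKT6. BET1L, the Qc-SNARE of this bundle, was at 424, 465 and 441 in DMSO and 384, 389 and 382 at 500 nM, without overlap. Its log2 fold change was -0.20 (SE 0.074, 95% interval -0.36 to -0.048) and its adjusted p 0.0671 by limma, so it did not pass. YKT6, a lipid-anchored R-SNARE, was at 1543, 1495 and 1441 in DMSO and 1608, 1615 and 1481 at 500 nM, with a log2 fold change of 0.07 (SE 0.052, 95% interval -0.04 to 0.18). GOSR1, the Qb-SNARE, had 0.068 (SE 0.057, 95% interval -0.052 to 0.19). The groups overlapped for both YKT6 and GOSR1.

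For return traffic from the Golgi to the ER, the bundle is STX18, BNIP1, USE1 and SEC22B. STX18, the Qa-SNARE of the ER, was at 681, 700.1 and 657 in DMSO and 654, 682 and 677 at 500 nM, with overlap and a log2 fold change of -0.018 (SE 0.054, 95% interval -0.13 to 0.10). BNIP1, the Qb-SNARE, had 0.0093 (SE 0.10, 95% interval -0.20 to 0.22) and USE1, the Qc-SNARE, -0.13 (SE 0.13, 95% interval -0.41 to 0.14). SEC22A and SEC22C are relatives of SEC22B, counted here with the SNAREs by family, that lack its SNARE motif. SEC22A was at 129.7, 148 and 181 in DMSO and 197, 182 and 169 at 500 nM, with a log2 fold change of 0.27 (SE 0.11, 95% interval 0.028 to 0.50), an adjusted p of 0.123 by limma and overlapping groups. SEC22C was at 0.015 (95% interval -0.10 to 0.13).

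Endosomal SNAREs carry cargo back to the trans-Golgi network and fuse late endosomes with lysosomes. None of the 13 passed at 500 nM, and the slope called STX10 and VAMP8 down. STX10 (chromosome 19, 13144058 to 13150383, minus strand), a Qc-SNARE of the route from endosomes to the trans-Golgi network, was at 973, 945 and 871 in DMSO, 979, 1048 and 915 at 0.5 nM, 961, 883 and 932 at 5 nM, 848, 903 and 863 at 50 nM and 846, 793 and 839.9 at 500 nM. The 500 nM dishes lay below those of DMSO, and the highest dish of all was 0.5 nM replicate 2. Its log2 fold change at 500 nM was -0.17 (SE 0.059, 95% interval -0.29 to -0.045) with a limma adjusted p of 0.0562, and its slope was -0.051 per dose step (adjusted p = 0.0179), lost in 1 of 25 alternatives, without 500 nM replicate 2 (0.075).

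VAMP8 (chromosome 2, 85561562 to 85582031, plus strand) is the R-SNARE of late endosomes and of fusion between autophagosomes and lysosomes. It was at 1641, 1678 and 1637 in DMSO, 1697, 2074 and 1776 at 0.5 nM, 1743, 1628 and 1596 at 5 nM, 1573, 1682 and 1484 at 50 nM and 1415, 1532 and 1497 at 500 nM. The 500 nM dishes of VAMP8 lay below those of DMSO, and again 0.5 nM replicate 2 was the highest. All the 0.5 nM dishes lay above every DMSO dish, with a log2 fold change of 0.16 (limma adjusted p = 0.269). The log2 fold change at 500 nM was -0.16 (SE 0.065, 95% interval -0.29 to -0.022) with an adjusted p of 0.108 by limma, and the slope of -0.054 per step (adjusted p = 0.0397) was lost in 8 of 25 alternatives: without the filter on low counts, and without replicate 1 or 3 at 0.5 nM, replicate 1 or 3 at 50 nM, or any 1 dish at 500 nM.

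None of the other members on the routes of STX10 and VAMP8 passed at 500 nM. On the endosome-to-Golgi route the log2 fold changes at 500 nM were -0.029 for the Qa-SNARE STX16, -0.015 for the Qc-SNARE STX6, 0.15 for the Qb-SNARE VTI1A and -0.10 for the R-SNARE VAMP4. VAMP4 was at 361, 399 and 402 in DMSO and 356, 398 and 330.3 at 500 nM, with overlap. VTI1A was higher in every 500 nM dish than in any DMSO dish, at 401, 389 and 435 against 361, 376 and 363 (adjusted p = 0.177 by limma). On the late endosomal route the Qa-SNARE STX7 was at 1243, 1196 and 1295 in DMSO and 1136, 1135 and 1165 at 500 nM, without overlap, with a log2 fold change of -0.12 (SE 0.046, 95% interval -0.22 to -0.023) and an adjusted p of 0.0835 by limma. The Qb-SNARE VTI1B was at 821, 898 and 937 in DMSO and 927, 962 and 916 at 500 nM, with overlap and a log2 fold change of 0.08 (SE 0.06, 95% interval -0.045 to 0.21). The Qc-SNARE STX8 had 0.01 (SE 0.11, 95% interval -0.22 to 0.24). STX12, a syntaxin of recycling endosomes, had -0.013 (95% interval -0.16 to 0.13).

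STX17 and SNAP29 join VAMP8 or YKT6 when autophagosomes fuse with lysosomes. SNAP29 was at 399.8, 414 and 398 in DMSO and 451, 425 and 460.1 at 500 nM, higher in every treated dish, with a log2 fold change of 0.14 (SE 0.059, 95% interval 0.018 to 0.26) and an adjusted p of 0.113 by limma. STX17 was at 549, 547 and 541 in DMSO and 590.1, 555 and 590.0 at 500 nM, also without overlap, with 0.084 (SE 0.066, 95% interval -0.055 to 0.22) and an adjusted p of 0.446. At the lower doses STX17 went the other way. It was at 518, 443 and 521 at 0.5 nM and 527, 524 and 528 at 5 nM, below every DMSO dish. The log2 fold changes were -0.15 (limma adjusted p = 0.309) and -0.051 (0.815). At 500 nM neither SNAP29 nor STX17 passed, and VAMP8 in the 500 nM dishes had a log2 fold change of the opposite sign.

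Plasma membrane SNAREs fuse secretory and recycling vesicles at the cell surface. None of the 7 tested passed at 500 nM. SNAP23 (chromosome 15, 42491233 to 42545356, plus strand), which supplies the Qb and Qc helices at the surface of non-neuronal cells, was the member called up by slope over all 15 libraries. It was at 111, 129 and 128 in DMSO, 123, 125 and 121 at 0.5 nM, 117, 114 and 136 at 5 nM, 132, 128 and 164 at 50 nM and 135, 165 and 155 at 500 nM. All 500 nM dishes lay above the highest DMSO dish. The log2 fold change at 500 nM was 0.30 (SE 0.12, 95% interval 0.051 to 0.54) with an adjusted p of 0.0921 by limma, and the slope was 0.078 per step (adjusted p = 0.0426). The slope call was lost in 8 of 25 alternatives: without the filter on low counts, in the treated libraries alone, and without DMSO replicate 1, 0.5 nM replicate 1 or 3, 50 nM replicate 3, or 500 nM replicate 2 or 3. SNAP23 shares 27.6% of its exon bases with other genes, among them LRRC57 on the other strand, and whether the counting used strand is not given in the sources used here. LRRC57 itself had a log2 fold change of -0.077 at 500 nM and a slope of -0.022 per step.

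The surface syntaxins and VAMPs had small fold changes at 500 nM. STX4, the Qa-SNARE that pairs with SNAP23, was at 736, 777 and 766 in DMSO and 762, 868 and 829 at 500 nM, with a log2 fold change of 0.11 (SE 0.055, 95% interval -0.0082 to 0.22). STX3, the Qa-SNARE of the apical surface in epithelia, was at 1222, 1122 and 1120.0 in DMSO and 1239, 1267 and 1200.3 at 500 nM, with 0.10 (SE 0.049, 95% interval -0.0042 to 0.20). The groups of STX3 and STX4 overlapped, as did those of STX2, a syntaxin also called epimorphin, which had -0.015 (SE 0.053, 95% interval -0.13 to 0.10). VAMP3, the R-SNARE of recycling vesicles, was at 1645, 1674 and 1594 in DMSO and 1500.2, 1574 and 1583 at 500 nM, lower in every treated dish, with -0.077 (SE 0.052, 95% interval -0.19 to 0.032) and an adjusted p of 0.359 by limma. VAMP2 had -0.071 and SNAP47 0.045. VAMP5, below the filter, ranged from 4.56 to 17.3 in the 15 dishes, too few counts to show a difference at this depth.

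STX2 (chromosome 12, 130789600 to 130839254, minus strand) was lower at 50 nM than at 5 nM. It was at 968, 955 and 900.3 at 5 nM and 828, 851 and 772 at 50 nM, without overlap, and at 814, 868 and 879 in DMSO. Its mean at 5 nM lay 10.3% above that of DMSO and at 50 nM 4.24% below it. The log2 fold change from 5 to 50 nM was -0.20 (SE 0.053, 95% interval -0.31 to -0.093) with an adjusted p of 0.0297 by limma. This call was lost in 5 of 25 alternatives, without the filter on low counts and without 5 nM replicate 1 or 2 or 50 nM replicate 1 or 3.

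**Figure D3:**
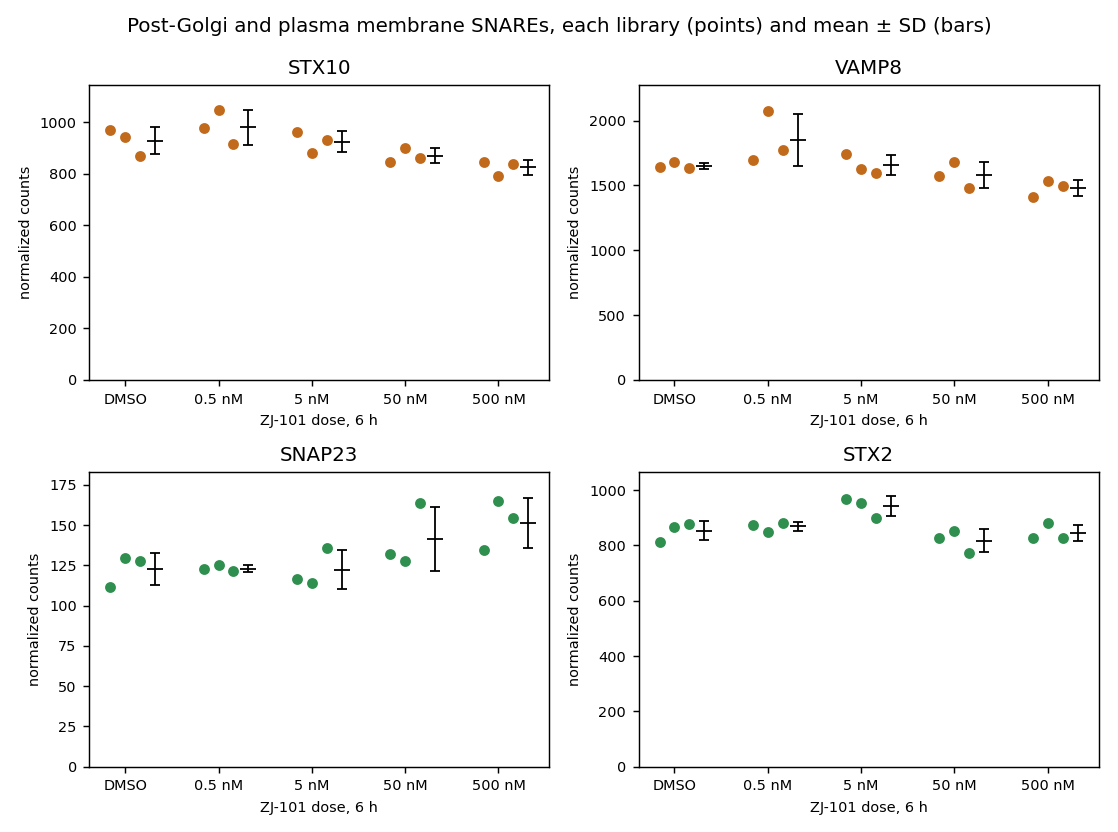
Normalized counts (y axis, from 0) of STX10, VAMP8, SNAP23 and STX2 by ZJ-101 dose (x axis), each dish as a point and mean ± SD beside it (n = 3). The 500 nM dishes of STX10 and VAMP8 lie below those of DMSO and those of SNAP23 above, and STX2 is highest at 5 nM.

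From 5 to 50 nM, STX5 and STX2 were thus the 2 members past the threshold, both down, a share of the list close to the 5.01% of all tested genes that were called, 2.62% up and 2.39% down. From 50 to 500 nM, 0 members passed by limma, edgeR or DESeq2, beside 2.28% of all tested genes, and 2 members had an unadjusted p under 0.05, beside 13.1%. The 2 were USE1 and STXBP2, both lower at 500 nM. The 5 to 50 nM count was 0 without 5 nM replicate 1 or 2 or 50 nM replicate 1 or 3, and 1 without DMSO replicate 2, 5 nM replicate 3 or 50 nM replicate 2. Those fits called between 3.13% and 4.74% of all tested genes.

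The 7 fusion regulators assemble the SNARE bundles or take them apart. None passed in any comparison. SCFD1, the SM protein that binds STX5, was at 1131, 1176 and 1128 in DMSO and 1084, 1098 and 1069.5 at 500 nM, without overlap, with a log2 fold change of -0.079 (SE 0.043, 95% interval -0.17 to 0.013) and an adjusted p of 0.248 by limma. Its residual SD between replicates was small, at percentile 1.12 of all tested genes. VPS45, the SM protein of endosomes, had -0.06 (SE 0.058, 95% interval -0.18 to 0.062). STXBP3, a surface SM protein that binds STX4, was at 475, 454 and 498 in DMSO and 431, 419.7 and 433 at 500 nM, with -0.15 (SE 0.066, 95% interval -0.29 to -0.012) and an adjusted p of 0.134. STXBP2, a surface SM protein that binds STX3 and STX11, was at 309, 345 and 332 in DMSO and 301, 306 and 276 at 500 nM, with -0.16 (SE 0.09, 95% interval -0.35 to 0.031). The 500 nM dishes of SCFD1, STXBP2 and STXBP3 all lay below the DMSO dishes.

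The SNAP adaptors link NSF to the spent bundle. NAPA was at 388, 354 and 333 in DMSO and 374, 371 and 396 at 500 nM, with a log2 fold change of 0.088 (SE 0.067, 95% interval -0.053 to 0.23). NAPG was at 496, 557 and 615 in DMSO and 509, 527 and 516 at 500 nM, with -0.10 (SE 0.074, 95% interval -0.25 to 0.056). Both pairs of groups overlapped.

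The classes can be set side by side by their medians. The median log2 fold change at 500 nM was -0.0043 over the 12 ER-Golgi SNAREs, -0.015 over the 13 endosomal SNAREs, 0.045 over the 7 tested plasma membrane SNAREs and -0.099 over the 7 regulators, beside 0.0027 over all tested genes. Differences between the classes were not tested. The ER-Golgi SNAREs split evenly, with 6 positive and 6 negative values from -0.34 (BET1) to 0.27 (SEC22A). Among the endosomal SNAREs 5 were positive and 8 negative, among the plasma membrane SNAREs 4 and 3, and among the regulators 1 (NAPA) and 6. The medians and the negative values include VAMP7 (endosomal, -1.98) and NSF (regulator, -0.56), both with wide intervals. The regulator median is the one farthest from 0, and it moved between -0.15 and -0.059 as single dishes were left out.

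At 0.5, 5 and 50 nM the class medians ran from -0.032 to -0.0051 for the ER-Golgi SNAREs, from -0.049 to 0.0019 for the endosomal SNAREs, from 0.013 to 0.046 for the plasma membrane SNAREs and from -0.022 to -0.013 for the regulators. The median size of the change at 500 nM, without regard to sign, was 0.098 over the 39 members and 0.12 over all tested genes. The 2 values were not tested against each other.

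**Figure D4:**
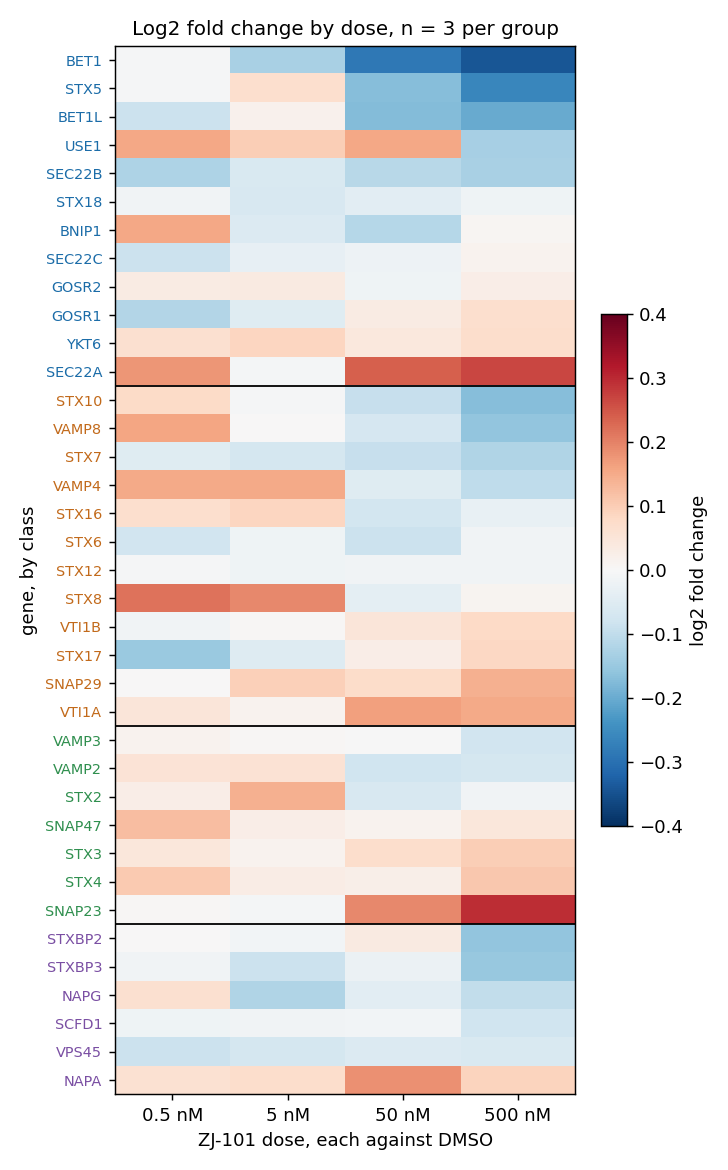
Log2 fold change against DMSO for 37 tested members (rows, ordered by class from ER-Golgi SNAREs at the top to regulators at the bottom and divided by lines) at the 4 ZJ-101 doses (columns), on a color scale from -0.4 (blue) to 0.4 (red). BET1 and STX5 are the darkest blue cells at 500 nM, and most other cells are pale. VAMP7 and NSF are left out.

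For most members the intervals set a narrow limit on any change. At 500 nM the 95% interval lay wholly within 0.25 on either side of 0 for 22 of 39 members, beside 32.6% of all tested genes, and within 0.5 for 34, beside 68.7%. By class the narrower limit held for 7 of 12 ER-Golgi SNAREs, 7 of 13 endosomal SNAREs, 5 of 7 plasma membrane SNAREs and 3 of 7 regulators. A change of up to that size can be present in any of them. The 3 treated and the 3 DMSO dishes did not overlap at 500 nM for 15 of the 39 members, the same share as the 38.5% of all tested genes. Of these, 4 were higher (18.9% of all tested genes) and 11 lower (19.6%). The 4 higher ones were SNAP23, SNAP29, VTI1A and STX17, and the 11 lower ones STX5, BET1, STX10, SEC22B, BET1L, STX7, VAMP8, STXBP3, SCFD1, STXBP2 and VAMP3.

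VAMP7 and NSF stood apart from the other members through their spread between replicates. VAMP7 is an R-SNARE of late endosomes and lysosomes that also acts at the cell surface. It was at 77.8, 143 and 14.2 in DMSO, 16.5, 59.1 and 86.01 at 0.5 nM, 108, 95.4 and 10.3 at 5 nM, 18.3, 62.2 and 21.3 at 50 nM and 14.3, 11.1 and 14.1 at 500 nM. The 3 dishes at 500 nM were all low, but DMSO replicate 3 was as low as them, so the groups overlap. The log2 fold change was -1.98 (SE 0.81, 95% interval -3.69 to -0.27) with an adjusted p of 0.107 by limma. edgeR and DESeq2 on the recovered reads called VAMP7 down at 500 nM, as did limma without DMSO replicate 3, without 5 nM replicate 3, and with the DMSO and 500 nM libraries alone.

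NSF was at 8.65, 3.03 and 58.8 in DMSO, 4.12, 6.01 and 6.84 at 0.5 nM, 6.38, 5.35 and 85.5 at 5 nM, 4.30, 2.18 and 118 at 50 nM and 7.13, 13.1 and 5.30 at 500 nM. A single dish in each of the DMSO, 5 nM and 50 nM groups, replicate 3 each time, was far above its group, and the rest lay between 2.18 and 13.1. The log2 fold change at 500 nM was -0.56 (SE 1.15, 95% interval -2.97 to 1.85), an interval that allows a large change either way. The residual SD was 1.31 for VAMP7 and 1.84 for NSF on the log2 scale, above 99.8% of all tested genes, whereas the other 37 tested members had at most 0.168, with 0.107 as the median of all tested genes.

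Both genes have further full-length copies in the hg38 sequence. VAMP7 lies in a region shared by chromosomes X and Y, with the same transcript at 100% identity on both. NSF on chromosome 17 has 2 copies on alternate contigs, with identities of 100% and 99.97%. A read that fits 2 places equally well may be dropped or placed at either of them, and how such reads were counted is not given in the sources used here, so the values of these 2 genes are uncertain as levels. SEC22B has 3 pseudogene copies on chromosome 1 (SEC22B2P, SEC22B3P and SEC22B4P) at 99% identity over most of its transcript, and its residual SD was at percentile 5.77. The part of the copies in the VAMP7, NSF and SEC22B values was not tested.

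**Figure D5:**
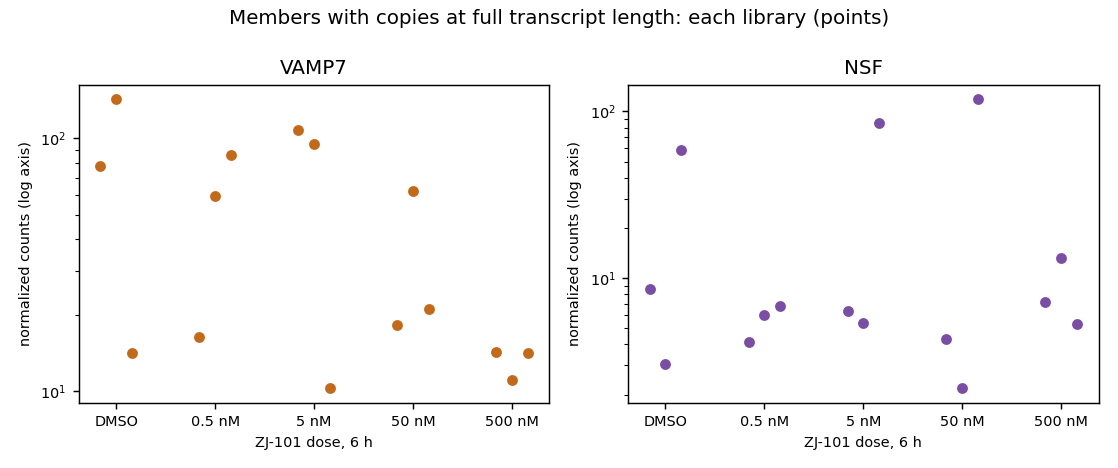
Normalized counts (y axis, log scale) of VAMP7 and NSF in each of the 15 dishes by ZJ-101 dose (x axis). VAMP7 ranges from 10.3 to 142.6 and NSF from 2.18 to 118.1, with VAMP7 dishes of the same group far apart except at 500 nM and single high NSF dishes in DMSO, 5 nM and 50 nM.

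The members also differed in how much of their sequence overlaps other genes. In 11 members over 10% of the exon bases lie within another gene, with 31.1% for STXBP2, 30.6% for NAPA, 30.3% for YKT6, 28.5% for STX16 and 27.6% for SNAP23 as the largest shares. STX5, BET1, STX10 and VAMP8 have none.

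Levels between members can be set side by side only per length, here as DMSO normalized counts per kb of the canonical transcript (mean ± SD, n = 3). VAMP8 was highest at 2434 ± 33.2, followed by VAMP3 at 752 ± 18.7 and STX10 at 713 ± 40.03. YKT6 at 539.6 ± 18.6, STX4 at 539 ± 14.99 and SCFD1 at 523 ± 12.1 did not differ beyond their spread. STX5 stood at 463 ± 43.4 and its partner BET1 at 217 ± 19.3, close to SEC22B at 214 ± 1.23. At the low end were SNAP23 at 53.2 ± 4.31, SEC22A at 44.9 ± 7.58, VAMP7 at 30.2 ± 24.8, VAMP5 at 18.5 ± 7.74 and NSF at 5.90 ± 7.71. VAMP7 and NSF are the members with full-length copies and the widest spread between dishes. The order depends on the length chosen: with all annotated exons merged, SCFD1 dropped from rank 6 to rank 34 of 40. By that length BET1, at 61.2 ± 5.45, and SEC22B, at 164 ± 0.943, were no longer close.

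Over the 15 dishes, the members most like STX5 in log2 level were STX10 (Pearson r = 0.79), BET1 (0.65) and VAMP7 (0.65). Those most like BET1 were STX10 (0.75), VAMP8 (0.69) and VAMP3 (0.66). These values share the dose groups and the libraries and are a description only.

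Of 25 further genes of the fusion machinery, such as Munc13 proteins, taxilins and tethers, 20 were tested and 2 passed at 500 nM, both up, beside 17.8% of all tested genes and 7.69% up. TXLNA and TXLNG, the 2 genes, encode taxilins, which bind syntaxins. TXLNA was at 2058, 1969.7 and 2113 in DMSO and 2450.1, 2258 and 2369.6 at 500 nM, with a log2 fold change of 0.20 (SE 0.057, 95% interval 0.085 to 0.32) and an adjusted p of 0.0161 by limma. TXLNG was at 974, 899 and 848 in DMSO and 1044, 1063 and 1007 at 500 nM, with 0.20 (SE 0.057, 95% interval 0.076 to 0.31) and 0.0209. Every 500 nM dish lay above every DMSO dish for both genes. The count was 0 without DMSO replicate 2 or 500 nM replicate 1, and 1 without DMSO replicate 3 or 500 nM replicate 2 or 3. Those fits called between 13.2% and 14.3% of all tested genes.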

How the data were processed

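RNA from 15 dishes of MDA-MB-231 cells was measured, 3 for each of DMSO and the 4 doses of ZJ-101. The authors used HISAT2 to place the paired-end reads on hg38, htseq-count to count them per GENCODE gene, and DESeq2 size factors to scale each library's counts. The deposited signal values are these normalized counts for 59608 genes, and 1 line without a gene was left out. Strandedness and tool versions are not given in the sources used here.

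Size factors were 0.916 to 1.13, and 100% of the values came out as whole reads within 0.001 (12415519 to 15284762 reads per library). Genes with a mean of at least 10 were tested with limma 3.58.1 (R 4.3.3) on log2(normalized count + 1) with a mean-variance trend. The 15 libraries shared 1 estimate of the spread (10 residual degrees of freedom), and the slope over ranked doses came from its own model. The p-values measure the spread between 3 dishes per group. edgeR 4.0.16 and DESeq2 1.42.0 were run on the recovered reads, among 25 alternatives in all. The test was checked on simulated data for 500 nM against DMSO. It recovered 35.3% of genes changed by 0.3 on the log2 scale, 78.8% at 0.6 and 84.8% at 1. Recovery in the members themselves, at their own spread between replicates, was not tested. Changes of the size seen in them can be missed. Positions are from GENCODE 44, copies from minimap2 2.31-r1302 (at least 50% of the transcript at 95% identity) and promoter windows from RefSeq.

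The members, the further lists and the motifs were chosen with earlier results of these data known. Members that passed at 50 or 500 nM or by slope were named with values in every library. Others were named by smallest p at 500 nM (up to 24 members), mostly with values in the DMSO and 500 nM libraries only. The rest were given by fold change, interval or range. Values of STX18, GOSR2, STX2 and NSF in single libraries, LRRC57, and the lower doses of SEC22B and STX17 were added after they had been seen. The 3D experiment was not analysed here. Of the neuronal markers, 1 is not reported here.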

Additional observations from a re-analysis of the deposited data

How the results depend on the processing

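No fold change of a tested member at 500 nM that was called turned its direction under the alternatives. At 500 nM, 7 members were called when the libraries of that comparison were fitted alone (BET1L, SEC22B, STX10, VAMP7 and VAMP8 added), and at 50 nM 1 was (BET1). Those fits called 24.3% of all tested genes at 500 nM and 8.26% at 50 nM. The slope over the treated libraries alone called 7 members (GOSR1, STX17 and VAMP4 added, SNAP23 lost), beside 17.8% of all tested genes. Without a filter on low counts, 3 members were called by slope (6.03% of all tested genes) and 0 from 5 to 50 nM (1.65%). Leaving out 1 library at a time gave 0 to 7 members at 500 nM, 0 to 1 at 50 nM, 1 to 6 by slope, 0 to 2 from 5 to 50 nM, and 0 to 2 of the other fusion machinery genes at 500 nM. The share of all tested genes called ran from 13.2% to 22.8% at 500 nM and from 4.13% to 9.41% at 50 nM. By slope it ran from 13.1% to 19.8%, and from 5 to 50 nM it was 3.13% to 8.33%. Leaving out 1 library moved the median log2 fold change from -0.017 to -0.0015 for the ER-Golgi SNAREs, from -0.052 to 0.0067 for the endosomal SNAREs, from 0.0065 to 0.086 for the plasma membrane SNAREs and from -0.15 to -0.059 for the regulators. The cause was not tested. Same-numbered dishes of different groups correlated between -0.085 and 0.096 in their deviations over all tested genes. A correlation over all genes cannot show whether dishes paired by number share a difference in some genes. NSF was far above its group in replicate 3 of DMSO, 5 nM and 50 nM, and not in that of 0.5 or 500 nM. Whether the numbers pair the dishes was therefore not settled. With the replicate number as a block, 3 members were called at 500 nM (SEC22B added), beside 18.5% of all tested genes. By slope 6 were called (STX7 added), beside 17.5%, and the other counts were as without the block. With 3 dishes per group, small changes in members can go uncalled.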

Other observations

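VAMP7 was not alone among the genes that chromosomes X and Y share in its spread between replicates. All 11 tested genes of this kind annotated as protein-coding, VAMP7 among them, had a residual SD above the 95th percentile of all tested genes. The values ran from 0.436 for ZBED1 to 1.38 for SLC25A6. SLC25A6, a mitochondrial ADP/ATP carrier, ranged from 186 to 2239 normalized counts over the 15 dishes and CD99, a surface glycoprotein, from 213 to 2294. VAMP7 ranged from 10.3 to 142.6. The reason for this spread was not tested.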
